A study of Homo sapiens with 16 samples.

Results

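The 10 receptor genes of the interleukin system described here were taken from 21453 gene symbols with a transcript value in the deposited tables: IL1R1, IL1RAP, IL4R, IL13RA1, IL6R, IL6ST, IL10RB, IL20RA, IL17RA and IL17RB. They were chosen by symbol, and the list was drawn up when results of these data were known. Which values led to each name is not recorded, but the low level of IL1R1 with estradiol in T-47D was among them. That value is therefore given as a description with no test, and none of the counts over the 10 genes is independent evidence of a pattern.

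The cells were ECC-1, an endometrial cancer line, and T-47D, a breast cancer line. All groups had been kept for 5 days in RPMI-1640 without phenol red, with 10% charcoal-treated fetal bovine serum, which is low in hormones. Cells then received, for 8 h, 0.02% DMSO as the vehicle, 10 nM 17β-estradiol, 100 nM bisphenol A (BPA, a plastics monomer) or 100 nM genistein (a soy isoflavone). Polyadenylated RNA was sequenced in 16 libraries, 2 from each of the 8 groups. The labels do not say that the libraries of a group came from separate cultures, so p-values measure only the spread between these libraries. Each line stands for 1 tumour, and estradiol was given at another concentration than the 2 other compounds, so its values are set beside theirs and not compared.

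Interleukins are secreted proteins through which immune cells signal to each other and to epithelia. Their receptors work as pairs of chains: a chain that binds the ligand and a partner that is often shared between several ligands. IL4R and IL13RA1 together form the receptor through which non-immune cells answer IL-4 and IL-13, and they signal through JAK kinases and STAT6. IL6ST, also called gp130, is the signalling chain shared by the IL-6 family, with IL6R binding IL-6 itself, and STAT3 downstream. IL1R1 binds IL-1 and recruits IL1RAP, after which the adaptor MYD88 leads to NF-κB. IL17RA and IL17RB bind IL-17 cytokines, and IL10RB and IL20RA are chains of receptors of the IL-10 family.

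The promoters of IL4R and IL6ST are shown first, because transcripts of these genes were called with estradiol. IL1R1 is left aside here, since its estradiol value in T-47D is described only. Each sequence is the 250 bases before the transcription start in RefSeq on GRCh38.p14, read 5′ to 3′ on the strand of the gene. That build differs from the hg19 build of the deposited values. Capitals mark the SP1 box, GGGCGG or its reverse complement CCGCCC.
IL4R (chr16:27313724-27313973, plus strand): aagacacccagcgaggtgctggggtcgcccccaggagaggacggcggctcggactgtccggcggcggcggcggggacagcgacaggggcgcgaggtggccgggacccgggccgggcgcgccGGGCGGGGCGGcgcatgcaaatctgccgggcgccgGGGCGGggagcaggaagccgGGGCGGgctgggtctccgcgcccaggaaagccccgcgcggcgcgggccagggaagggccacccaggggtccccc
IL6ST (chr5:55994964-55995213, minus strand): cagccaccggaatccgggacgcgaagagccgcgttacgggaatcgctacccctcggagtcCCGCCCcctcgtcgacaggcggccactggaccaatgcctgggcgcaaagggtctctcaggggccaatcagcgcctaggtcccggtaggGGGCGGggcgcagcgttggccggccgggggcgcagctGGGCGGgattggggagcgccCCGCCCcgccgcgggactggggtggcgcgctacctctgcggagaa

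Both promoters are rich in G and C, at 80.8% for IL4R and 73.6% for IL6ST, and each holds 4 SP1 boxes on either strand. In IL4R 2 of the boxes overlap. A box is common: 42.6% of 35116 RefSeq promoter windows of this length hold one. Neither window holds the half-site of the estrogen receptor, GGTCA or TGACC, which 32.6% of windows hold, nor the full element, an inverted repeat of it with 3 bases between, which 0.0399% hold. The AP-1 letters TGANTCA (in 6.57% of windows), the STAT letters TTC and GAA with 3 (6.57%) or 4 bases (5.38%) between, and the TATA letters TATAAA or TTTATA (10.7%) were not found in either window. Windows were found for 9 of the 10 genes, 13 in all, of which IL1R1 has 4 and none is shown, since the deposited row does not say which start it used. Among these 13 windows the half-site occurred in those of IL13RA1 and IL20RA. IL17RA has no entry. A match of letters is a description of these windows and no evidence of binding.

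Levels are RPKM (reads per kilobase per M mapped reads), scaled between libraries, given per library or as mean ± SD with n = 2. Since RPKM is per length, levels of different genes can be set side by side. A difference is on the scale of log2(scaled RPKM + 0.5), which makes the difference of a low gene smaller than its ratio of means. A gene counts as called when its adjusted p in limma, over 13827 genes, is under 0.05. Estimated depth was 17.4 to 29.4 M reads per library. Libraries of a group differed most with estradiol: the log2 difference between them had an SD, taken across genes, of 0.343 (ECC-1) and 0.411 (T-47D), and of 0.17 to 0.242 without it. The lines carried the markers of their tissues: the 6 Mullerian genes summed to 330 to 375 scaled RPKM in ECC-1 and 0.579 to 0.985 in T-47D, and the 8 luminal breast genes to 2440 to 4010 and 5320 to 9110. The luminal sum in ECC-1 was mostly the keratins KRT8 (1420 to 2280) and KRT18 (883 to 1570), which overlapped their T-47D values. GATA3, SPDEF and PIP reached at most 0.375, 0.543 and 0 in ECC-1, against at least 239, 150 and 109 in T-47D. FOXA1 and TRPS1 reached at most 3.57 and 3.29, against at least 104 and 127. Leukocytes are the best-known site of interleukin receptors. Their 14 markers summed to 4.69 to 6.88 in ECC-1 and 5.36 to 8.58 in T-47D, mostly LYZ. The T-cell gene CD2 was listed at 0 in all libraries, and the pan-leukocyte gene PTPRC reached at most 0.0418.

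All 10 genes passed the filter of at least 1 RPKM in at least 2 libraries. IL6R and IL20RA passed it only through the 8 T-47D libraries, so their difference between the lines had to be large and is no support for anything. In T-47D with DMSO the order of mean levels ran from IL6ST (48.7 ± 3.34) over IL1R1 (34.2 ± 1.8), IL13RA1 (19.2 ± 0.367), IL10RB (17.2 ± 0.235), IL4R (13.9 ± 0.135), IL17RA (8.85 ± 0.555), IL1RAP (7.36 ± 0.278), IL17RB (6.14 ± 0.733) and IL20RA (5.46 ± 0.447) to IL6R (1.79 ± 0.0693). The libraries of IL17RB and IL20RA overlapped, and those of all other neighbours did not. In ECC-1 IL6ST (24.7 ± 0.728) and IL13RA1 (24.7 ± 0.0836) stood together at the top and overlapped. IL1R1 (7.9 ± 1.42) and IL10RB (7.79 ± 0.782) followed and overlapped as well. IL1RAP (3.81 ± 0.357), IL4R (3.31 ± 0.122), IL17RB (3.25 ± 0.625) and IL17RA (2.95 ± 0.235) came next. IL6R (0.189 ± 0.0438) and IL20RA (0.0933 ± 0.0311) were lowest, on an estimated 20 to 70 and 6 to 12 reads per ECC-1 library.

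**Figure D1:**
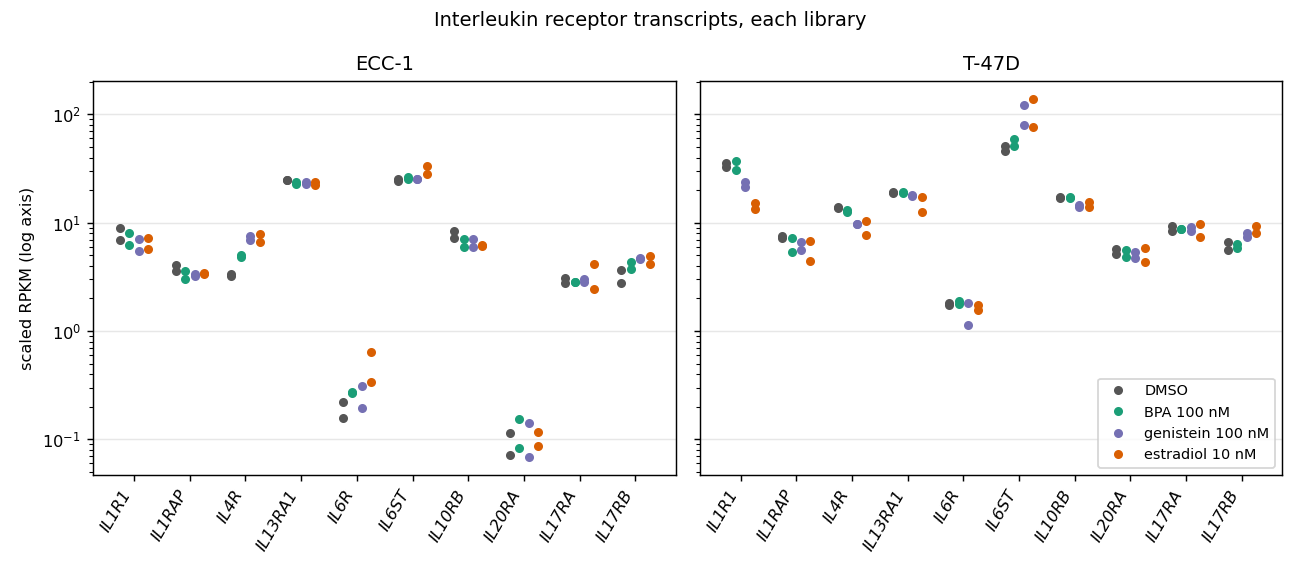
Scaled RPKM (log axis) of the 10 interleukin receptor genes in ECC-1 (left) and T-47D (right), 1 point per library and 4 treatments by colour. IL6ST is at or near the top in both lines, from 24.2 to 139 scaled RPKM over all libraries, and IL20RA reaches no more than 0.154 in ECC-1 and no less than 4.35 in T-47D.

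Between the lines without hormone, 9 of the 10 genes were called higher in T-47D and 1 lower. Over all tested genes 76.7% were called in this comparison, 39.6% higher and 37.1% lower, so a call is common here. Since IL6R and IL20RA had to differ, nothing is read from the count. The ratio of means was 58.6 for IL20RA, 9.44 for IL6R, 4.32 for IL1R1, 4.21 for IL4R, 3.01 for IL17RA, 2.2 for IL10RB, 1.97 for IL6ST, 1.93 for IL1RAP and 1.89 for IL17RB. IL13RA1 was the exception: it was lower in T-47D, with a log2 difference of -0.36 (95% interval -0.63 to -0.08, limma adjusted p = 0.0192), a call that ended without any 1 of the 4 DMSO libraries (-0.38 to -0.34). In these bulk samples fewer cells with a transcript and less of it per cell cannot be told apart.

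**Figure D2:**
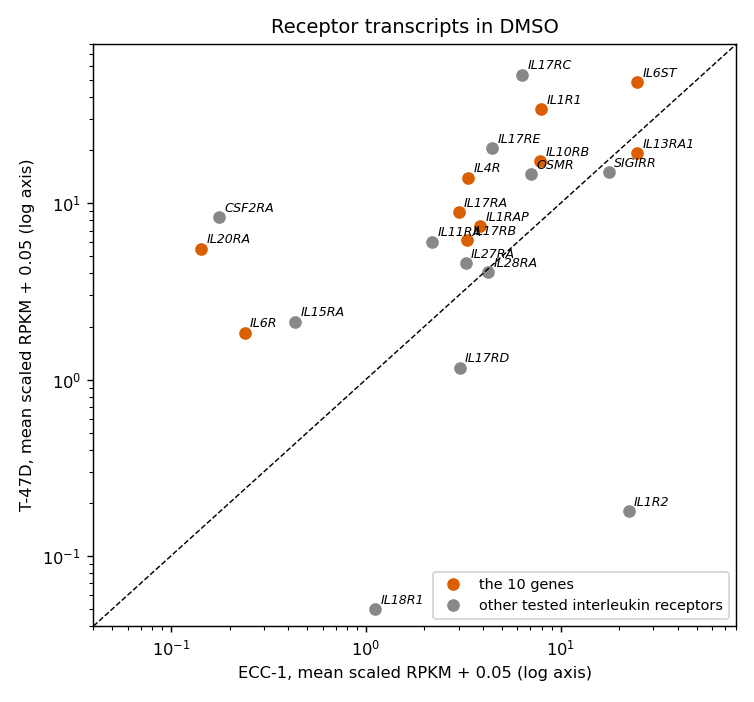
Mean scaled RPKM plus 0.05 in DMSO in ECC-1 (horizontal, log axis) against T-47D (vertical, log axis), 1 point per gene for the 10 receptor genes (orange) and the 12 other tested interleukin receptors (grey), with a dashed line of equal level. IL13RA1, at 24.7 in ECC-1 and 19.2 in T-47D, lies below the line of equal level, and IL20RA, at 0.0933 and 5.46, far above it.

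IL4R, the chain that binds IL-4 and pairs with IL13RA1 for IL-13, moved in opposite directions in the 2 lines. In ECC-1 it stood at 3.22 and 3.39 scaled RPKM with DMSO, 5.04 and 4.8 with BPA, 7.55 and 6.87 with genistein, and 7.83 and 6.71 with estradiol. In T-47D it stood at 13.8 and 14 with DMSO, 12.6 and 13.2 with BPA, 9.66 and 9.8 with genistein, and 10.4 and 7.68 with estradiol. All treated ECC-1 libraries lay above both ECC-1 controls, and all treated T-47D libraries lay below both T-47D controls.

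In ECC-1 IL4R rose 2.2-fold with estradiol, by the ratio of means, with a log2 change of 1.03 (SE 0.139, limma adjusted p = 0.000578). It rose 2.18-fold with genistein (1.02, 95% interval 0.72 to 1.31, adjusted p = 0.00081). Among the 13827 tested genes these were the 90th and the 69th largest positive log2 changes. With BPA the ECC-1 mean was 1.49-fold that of the control and did not pass (0.51, interval 0.21 to 0.81, adjusted p = 0.587). In T-47D IL4R fell 1.54-fold with estradiol (-0.61, interval -0.9 to -0.31, adjusted p = 0.0262). The T-47D values with genistein (-0.49, interval -0.79 to -0.2, adjusted p = 0.187) and BPA (-0.1, interval -0.4 to 0.19, adjusted p = 1) did not pass.

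The ECC-1 calls of IL4R with estradiol and genistein held in all 16 alternatives run for each. The T-47D call with estradiol was less steady: it ended without the first (-0.62, adjusted p = 0.124) or second DMSO library (-0.60, adjusted p = 0.208), and the change ran from -0.82 without the first to -0.40 without the second estradiol library. The second deposited transcript row of IL4R, which can share reads with the one used, differed from DMSO by 1.01 with estradiol and 0.97 with genistein in ECC-1, and by -0.76 and -0.44 in T-47D.

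The difference between the lines in the response of IL4R was tested directly, as the T-47D change minus the ECC-1 change. It was -1.63 for estradiol (SE 0.197, limma adjusted p = 0.000291) and -1.51 for genistein (95% interval -1.93 to -1.09, adjusted p = 0.00119). For BPA it was -0.61 (interval -1.03 to -0.19) and did not pass (adjusted p = 1). In this test IL4R was the 1 called gene of the 10 for estradiol, where 1.73% of all genes were called and 0.839% in this direction. It was also the 1 called gene for genistein, where 0.586% were called and 0.347% in this direction. For BPA 0 of the 10 were called, against 0.0434% of all genes. The 8 group means of IL4R thus ran from T-47D with DMSO (13.9) down to ECC-1 with DMSO (3.31). The groups in the middle, T-47D with genistein and estradiol and ECC-1 with estradiol and genistein, overlapped with their neighbours.

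**Figure D3:**
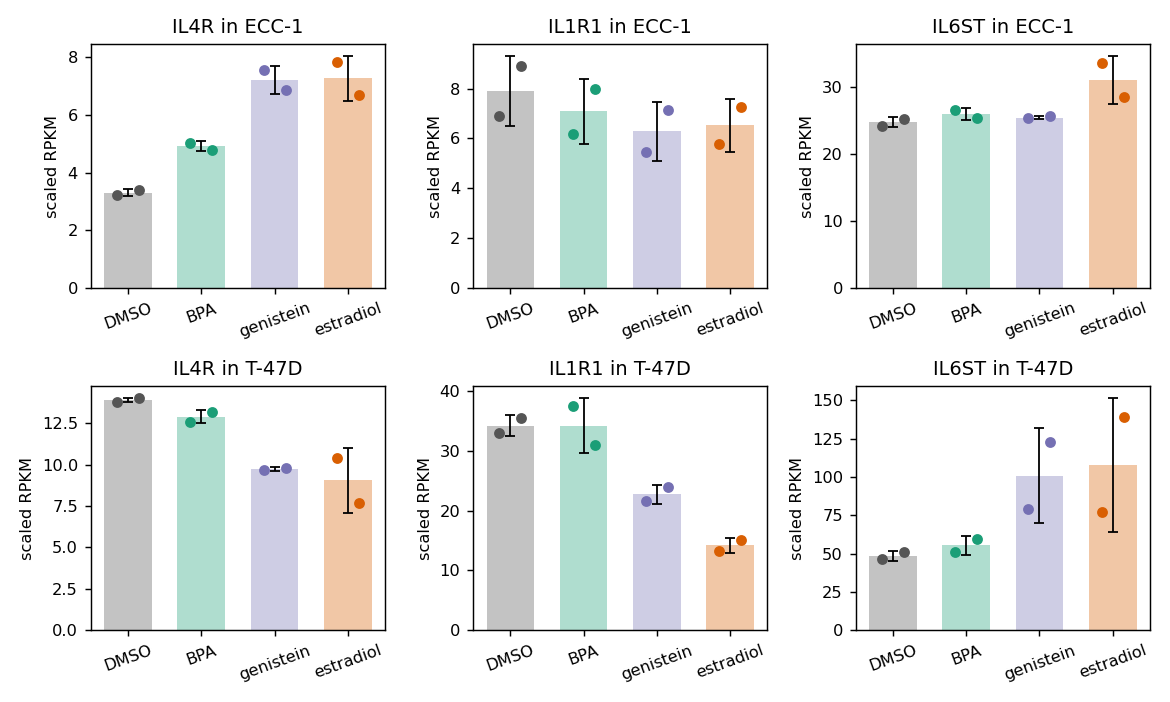
Scaled RPKM of IL4R, IL1R1 and IL6ST in ECC-1 and T-47D under each treatment, with bars for the mean, error bars for the SD (n = 2) and 1 point per library. Axes start at 0 and differ in range between panels. IL4R lies at 6.71 to 7.83 with genistein and estradiol in ECC-1 against 3.22 and 3.39 with DMSO, IL1R1 at 13.3 and 15.1 with estradiol in T-47D against 32.9 and 35.4, and IL6ST at 76.9 and 139 against 46.4 and 51.1.

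IL13RA1, the partner chain that lets IL4R answer IL-13, did not pass the test with any treatment. In ECC-1 it stayed between 22.5 and 24.8 scaled RPKM in all 8 libraries. In T-47D it stood at 18.9 and 19.4 with DMSO and 12.6 and 17.3 with estradiol, a log2 difference of -0.36 (95% interval -0.64 to -0.09, limma adjusted p = 0.176). Both estradiol libraries lay below both controls. The difference rested on the first of them: it was -0.59 without the second and -0.14 without the first. Each of these fits left 1 estradiol library in T-47D, so only sizes are given. IL13RA2, the high-affinity decoy for IL-13, reached at most 0.0393 in any library. IL2RG, the common gamma chain that pairs with IL4R on lymphocytes, reached at most 0.0348.

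IL1R1, the receptor chain that binds IL-1, had its lowest T-47D level with estradiol. The T-47D libraries stood at 32.9 and 35.4 scaled RPKM with DMSO, 37.4 and 30.9 with BPA, 21.6 and 23.9 with genistein, and 13.3 and 15.1 with estradiol. Estradiol and genistein libraries all lay below both controls, and BPA libraries lay on both sides of them. The estradiol mean of 14.2 ± 1.3 was 2.41-fold below the control mean of 34.2 ± 1.8 (log2 difference -1.24), the 3rd largest negative value among all tested genes. This is the value known when the list was made, and it is given without a test.

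With genistein IL1R1 in T-47D differed from DMSO by -0.58 on the log2 scale (95% interval -0.95 to -0.21) and did not pass (limma adjusted p = 0.253). With BPA the difference was -0.01 (interval -0.38 to 0.36). In ECC-1 the libraries stood at 6.9 and 8.91 with DMSO, 6.17 and 7.99 with BPA, 5.45 and 7.12 with genistein, and 5.78 and 7.27 with estradiol. The second library was the higher in each ECC-1 group, and each treated group overlapped the control. The ECC-1 differences of IL1R1 were -0.26 with estradiol, -0.31 with genistein and -0.15 with BPA, with adjusted p of at least 0.479.

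IL1RAP is the gene of the accessory chain without which IL1R1 does not signal. The transcript row used for it did not pass with any treatment. Its lowest T-47D library was the first with estradiol, at 4.47 scaled RPKM, while the second stood at 6.82 and the controls at 7.56 and 7.17 (log2 difference -0.38, 95% interval -0.77 to 0, limma adjusted p = 0.344). The difference was -0.66 without the second estradiol library and -0.11 without the first, sizes that rest on 1 estradiol library each. In ECC-1 all 8 libraries lay between 3 and 4.06. IL1RAP has 6 transcript rows in the files, and its difference between the lines depends on the row: 0.87 for the row used, NM_134470, and 0.31 to 0.87 over the 6. Rows of 1 gene can share reads, so which transcript differed is uncertain. The levels of IL1RAP, its place in the order and its ratio of 1.93 between the lines rest on the row used. With DMSO the 6 rows had means from 2.63 to 4.47 in ECC-1 and from 4.58 to 7.36 in T-47D. Whether the row used encodes the chain that signals or another form of the protein was not examined.

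IL1R2 is a decoy receptor that binds IL-1 without signalling. With DMSO it stood at 22.3 ± 4.06 scaled RPKM in ECC-1 and 0.13 ± 0.105 in T-47D. It passed the filter only through ECC-1 libraries and so had to differ, and no test between the lines is given. In ECC-1 it stood at 39.2 ± 13.4 with estradiol (0.77, 95% interval 0.32 to 1.22, limma adjusted p = 0.0917) and 36.3 ± 4.7 with genistein (0.69, adjusted p = 0.24), neither of which passed. Per length, ECC-1 thus held more IL1R2 than IL1R1 transcript (7.9 ± 1.42), and T-47D less (34.2 ± 1.8).

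IL6ST, the signalling chain of the IL-6 family, had the highest level of the 10 genes in T-47D under every treatment and rose there with estradiol. Its T-47D libraries stood at 46.4 and 51.1 scaled RPKM with DMSO, 50.9 and 59.8 with BPA, 79.4 and 123 with genistein, and 76.9 and 139 with estradiol. All estradiol and genistein libraries lay above both controls. The second library was the higher in each of these 4 groups, with estradiol by 0.85 on the log2 scale.

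The estradiol mean of IL6ST in T-47D was 2.21-fold that of the control, a log2 change of 1.08 (SE 0.225, limma adjusted p = 0.0149). The call ended without the first (1.01, adjusted p = 0.109) or second DMSO library (1.15, adjusted p = 0.0853), and the change ran from 0.66 without the second to 1.5 without the first estradiol library. With genistein the ratio of means was 2.07 and the change of 1.01 (95% interval 0.53 to 1.49) lay just outside the threshold (adjusted p = 0.0532). It passed in 5 of 16 alternatives, some of which left 1 library in a group. The change was 1.33 without the first genistein library and 0.7 without the second. With BPA the difference was 0.18 (interval -0.3 to 0.66). The second transcript row gave 1.08, 1.02 and 0.18.

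In ECC-1 IL6ST did not pass with any treatment. It stood at 24.2 and 25.2 scaled RPKM with DMSO and 33.6 and 28.4 with estradiol (log2 difference 0.32, 95% interval -0.16 to 0.8). With BPA it stood at 26.5 and 25.3 and with genistein at 25.3 and 25.6, just above the controls. The response of IL6ST did not differ between the lines beyond the threshold: T-47D minus ECC-1 was 0.76 for estradiol (interval 0.08 to 1.44, limma adjusted p = 0.254) and 0.97 for genistein (interval 0.29 to 1.65, adjusted p = 0.43). Single libraries moved both: the estradiol value was 0.34 without the second T-47D estradiol library and 1.18 without the first. The genistein value was 0.66 without the second T-47D genistein library and 1.29 without the first.

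IL6R, which binds IL-6 and presents it to IL6ST, was scarce. In T-47D it lay between 1.14 and 1.89 scaled RPKM, with no treatment called. In ECC-1 it stood at 0.158 and 0.22 with DMSO and 0.635 and 0.342 with estradiol (log2 difference 0.51, 95% interval 0.13 to 0.88, limma adjusted p = 0.191), a difference between very low levels. It was 0.72 without the second estradiol library and 0.29 without the first, sizes that rest on 1 estradiol library each. Of the other chains that pair with IL6ST, the oncostatin M receptor OSMR stood at 14.6 ± 0.0448 in T-47D against 7 ± 0.0369 for ECC-1 with DMSO (1, adjusted p = 1.92e-06). IL11RA, which binds IL-11, stood at 6.01 ± 0.106 and 2.14 ± 0.0648 (1.3, adjusted p = 4.02e-06). LIFR, the receptor chain of leukemia inhibitory factor, stayed under 1 scaled RPKM in all libraries, with a highest value of 0.718.

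IL10RB, a partner chain shared by receptors of IL-10, IL-22 and the lambda interferons, was lower than DMSO in most treated groups without passing. In ECC-1 it stood at 7.24 and 8.35 scaled RPKM with DMSO and 6.21 and 6.1 with estradiol (log2 difference -0.31, 95% interval -0.58 to -0.04, limma adjusted p = 0.259). With BPA and with genistein the ECC-1 difference was -0.25, and all treated ECC-1 libraries lay below both controls. In T-47D the difference was -0.21 with estradiol, -0.27 with genistein and -0.01 with BPA. IL10RA, the chain that binds IL-10, reached at most 0.0737 in any library.

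IL20RA, which forms receptors for IL-19, IL-20, IL-24 and IL-26, separated the lines and was not called with any treatment. In T-47D its 8 libraries lay between 4.35 and 5.86 scaled RPKM, and each treated group overlapped the control. The log2 differences were -0.1 with estradiol (95% interval -0.43 to 0.23), -0.07 with BPA and -0.1 with genistein. At an estimated 6 to 12 reads per library, a fall or a small change within ECC-1 could not be resolved. Its partner IL20RB reached at most 0.678 in any library.

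IL17RB, which binds IL-17B and IL-25, was higher than DMSO with estradiol and genistein in both lines without passing the test in any. In ECC-1 it stood at 3.69 and 2.8 scaled RPKM with DMSO, 4.18 and 4.91 with estradiol and 4.6 and 4.74 with genistein. In T-47D it stood at 6.66 and 5.62 with DMSO, 9.32 and 8.1 with estradiol and 8.05 and 7.31 with genistein. The treated libraries of these 4 groups lay above both controls of their line. The log2 difference with estradiol was 0.44 in ECC-1 (95% interval 0.12 to 0.75, limma adjusted p = 0.185) and 0.47 in T-47D (interval 0.16 to 0.79, adjusted p = 0.119). The T-47D value was 0.57 without the second estradiol library and 0.38 without the first, sizes that rest on 1 estradiol library each. With genistein it was 0.47 (adjusted p = 0.254) and 0.31 (adjusted p = 0.907). The difference in the estradiol response between the lines was 0.04, with an interval of -0.41 to 0.49.

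IL17RA, the common chain of the IL-17 receptors, differed from DMSO by -0.05 to 0.11 on the log2 scale over the 6 treatment comparisons. In ECC-1 the estradiol libraries stood at 4.17 and 2.44 scaled RPKM, on both sides of the controls at 2.78 and 3.11. In T-47D they stood at 9.82 and 7.4, on both sides of 8.46 and 9.25. Of its partners, IL17RC stood at 53.4 ± 0.138 in T-47D against 6.29 ± 0.295 for ECC-1 (2.99, limma adjusted p = 4.18e-10), above IL6ST in T-47D without hormone. IL17RE, the receptor of IL-17C, stood at 20.4 ± 0.666 and 4.39 ± 0.0256 (2.09, adjusted p = 3.4e-08).

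**Figure D4:**
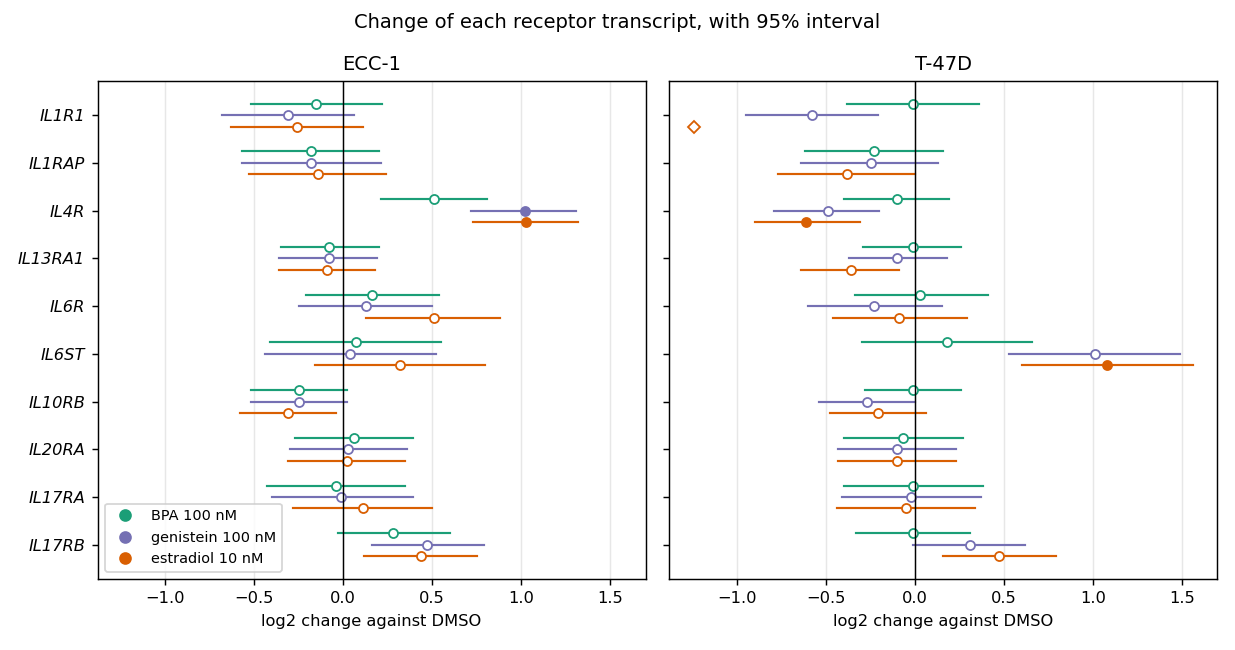
Log2 change against DMSO of each of the 10 genes in ECC-1 (left) and T-47D (right), with 95% intervals from limma. Filled points passed the threshold, open points did not, and the open diamond without an interval is IL1R1 with estradiol in T-47D, which is described only. IL4R lies at 1.03 and 1.02 with estradiol and genistein in ECC-1 and at -0.61 and -0.49 in T-47D.

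Counted over the list, few of the 10 genes were called with any treatment. In ECC-1 with estradiol 1 of the 10 was called, in the higher direction, against 1.89% of all genes in either direction and 1.42% higher. With genistein in ECC-1 it was also 1, higher, against 0.969% and 0.81%. With BPA in ECC-1 it was 0 against 0.195% in limma, with IL4R alone at an unadjusted p under 0.05, where 2.51% of all genes were. In T-47D with estradiol 3 were called, 1 higher and 2 lower, against 3.22% in either direction, 2.1% higher and 1.11% lower. Nothing is read from this last count, since it holds IL1R1. In T-47D with genistein 0 were called against 0.803%. There, 3 of the 10 had an unadjusted limma p under 0.05, as did 5.79% of all genes. In T-47D with BPA limma called 0 of the 10 and 0% of all genes, with 0 of the 10 and 116 of all genes at an unadjusted p under 0.05.

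Separation of libraries was more frequent than calls, among the 10 as over all genes, and is a weaker criterion. In T-47D both estradiol libraries lay below both controls for 6 of the 10 genes and above for 2, where 16.4% and 16.9% of all genes did so. The count below the controls and the T-47D estradiol median given last hold IL1R1, so nothing is read from them. With genistein in T-47D this was 5 below and 2 above, against 18.5% and 17.9%. With BPA in T-47D it was 1 below and 0 above, against 10.2% and 10.5%. In ECC-1 it was 3 below and 4 above with estradiol (21.8% and 21.7% of all genes), 2 and 4 with BPA (19.7% and 15.3%) and 3 and 3 with genistein (29.2% and 21.9%). The T-47D comparisons share their 2 DMSO libraries, as do those in ECC-1, so these counts are not independent of each other. The median log2 difference of the 10 genes was -0.16 with estradiol and -0.16 with genistein in T-47D, against -0.01 and 0 over all tested genes, and 0.06 and 0.01 in ECC-1, against 0 and -0.03.

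BPA and genistein, a bisphenol and an isoflavone, were both given at 100 nM for 8 h and can be compared directly. Over 10 genes in 2 lines limma called none of the 20 differences, where 0.0434% of all genes were called in ECC-1 and 0.405% in T-47D. At an unadjusted limma p under 0.05 there was 1 gene in ECC-1 and 3 in T-47D, where 1.49% and 4.33% of all genes were. In ECC-1 IL4R was higher with genistein than with BPA by 0.51 (95% interval 0.21 to 0.81, adjusted p = 0.894). In T-47D genistein minus BPA was 0.83 for IL6ST (interval 0.35 to 1.31, adjusted p = 0.27), -0.57 for IL1R1 (interval -0.94 to -0.2, adjusted p = 0.41) and -0.39 for IL4R (interval -0.69 to -0.09, adjusted p = 0.67). These intervals leave out 0, but the differences did not pass over all genes. IL17RA, at 0.04 in ECC-1 and -0.01 in T-47D (interval -0.4 to 0.38), was among the genes with the least difference. The values not given here ran from -0.16 to 0.19 in ECC-1 and from -0.26 for IL6R to 0.32 for IL17RB in T-47D.

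The other interleukin receptors were mostly under the filter. Of 44 listed symbols 40 are in the files and 12 were tested, and limma called 0 of the 12 with any treatment in either line. Over all genes 0% to 3.22% were called with a treatment, so 0 of 12 is close to that share. Between the lines 7 were called higher and 3 lower in T-47D, where 76.7% of all genes were called. Of the 12, IL1R2 and IL18R1 passed the filter only through ECC-1 libraries and CSF2RA and IL15RA only through T-47D, so nothing is read from these counts. The highest besides IL17RC, IL17RE and IL1R2 was SIGIRR, a single-domain inhibitor of IL-1 family signalling, at 15 ± 1.21 in T-47D against 17.6 ± 2.44 for ECC-1. CSF2RA, the alpha chain of the GM-CSF receptor, stood at 8.28 ± 0.508 in T-47D against 0.127 ± 0.00234 for ECC-1. IL18R1, which binds IL-18, stood at 1.07 ± 0.055 in ECC-1 and was listed at 0 in the T-47D libraries with DMSO.

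Ligands of these receptor families were rarer still. Of 38 listed symbols 33 are in the files and 4 were tested, IL18, CNTF, CTF1 and CLCF1, of which limma called 0 with any treatment. Over all genes at most 3.22% were called with a treatment. IL18, an IL-1 family cytokine, stood at 12.1 ± 0.356 in T-47D against 1.73 ± 0.231 for ECC-1 with DMSO. CTF1 (8.09 ± 1.41 and 1.12 ± 0.399) was also higher in T-47D, CLCF1 (1.24 ± 0.106 and 4.11 ± 0.405) was lower, and CNTF (1.27 ± 0.289 and 0.785 ± 0.273) did not pass. These last 3 are ligands of the IL-6 family. IL4, IL13 and IL6 reached at most 0.054, 0.0413 and 0.164 scaled RPKM in any library.

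Transcripts of the signalling proteins behind the receptors were present in both lines. Of 41 listed symbols 38 are in the files and 35 were tested, of which 19 were called higher and 10 lower in T-47D, against 39.6% and 37.1% of all genes. Of these 35, IRS2, SOCS1 and SOCS3 passed the filter only through ECC-1 libraries. The 4 most abundant over the DMSO libraries were ADAM10, STAT3, TAB2 and NFKBIA. ADAM10, a protease that sheds IL6R from the cell surface, stood at 47.5 in T-47D against 109 for ECC-1 (-1.19, limma adjusted p = 4.25e-07). TAB2, an adaptor on the path from IL-1 to NF-κB, stood at 63.9 and 23.8 (1.41, adjusted p = 1.64e-06), and NFKBIA, an inhibitor of NF-κB, at 52.9 and 17.6 (1.56, adjusted p = 8.96e-08). STAT3, which acts behind IL6ST, stood at 118 scaled RPKM in T-47D against 15.6 for ECC-1 with DMSO (2.88, limma adjusted p = 7.6e-12). STAT6, behind IL4R, stood at 46.1 and 5.93 (2.86, adjusted p = 1.74e-11). MYD88, behind IL1R1, stood at 30.7 and 1.2 (4.21, adjusted p = 8.84e-12). JAK1, a kinase bound by IL6ST and IL4R, stood at 40.1 and 2.5 (3.77, adjusted p = 4.89e-12).

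With estradiol 2 of the 35 signalling genes rose in ECC-1 and 3 in T-47D, where 1.42% and 2.1% of all genes rose, and 0 fell in either line. CISH, an inhibitor of cytokine receptor signalling, rose in ECC-1 from 2.96 to 8.61 (1.4, limma adjusted p = 0.000631) and in T-47D from 7.21 to 18.3 (1.29, adjusted p = 0.000976). With genistein, where 0.969% of all genes were called in ECC-1 and 0.803% in T-47D, CISH was the 1 called gene of the list in each line (1.36, adjusted p = 0.00113 in ECC-1 and 0.93, adjusted p = 0.0297 in T-47D). JAK1 rose in T-47D with estradiol from 40.1 to 65.5 (0.7, adjusted p = 0.019), as did IRS1, a docking protein used by IL4R and by insulin receptors (0.7, adjusted p = 0.0478). TRAF3, an adaptor of innate immune signalling, rose in ECC-1 with estradiol (0.51, adjusted p = 0.0482). With BPA 0 of the 35 were called in either line, against 0.195% of all genes in ECC-1 and 0% in T-47D. With estradiol the 35 genes had a median change of 0.07 in ECC-1 (0 over all tested genes) and -0.06 in T-47D (-0.01).

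For IL4R, IL1R1 and IL6ST, the 3 genes with the largest changes, the most similar patterns among 12922 genes were found by the correlation of log2 values over the 16 libraries, centred within each line. These values describe the libraries, which share depth and treatment, and carry no test. Genes picked by this correlation share the directions of change because of how they were picked. IL4R was closest to SLC5A6, a vitamin transporter (r = 0.94), and to VASN, MYO18A, SLCO2A1 and FAM43A (0.93 each). All 5 had a positive log2 difference with estradiol in ECC-1, from 0.66 for SLC5A6 to 1.75 for the prostaglandin transporter gene SLCO2A1, and a negative one in T-47D, from -0.69 for SLCO2A1 to -0.29 for SLC5A6. IL6ST was closest to GRPR (0.97), MEIS3P1 and CD44 (0.96 each), MAN1A1 and UGCG (0.95 each), whose T-47D differences with estradiol ran from 0.68 for GRPR, the receptor of gastrin-releasing peptide, to 1.21 for MAN1A1. CD44, the receptor of hyaluronan, stood at 0.81. IL1R1 was closest to SLC11A2 (0.95), MTERFD3 (0.93), MECOM and NDST4 (0.92 each) and LPHN2 (0.91), with T-47D differences from -1.06 for NDST4 to -0.36 for the metal transporter gene SLC11A2.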

How the data were processed

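RNA was measured in 16 libraries, 2 for each combination of line and treatment. The authors deposited RPKM values for 32062 RefSeq transcripts per library. Reads were aligned to hg19 with Bowtie, per the submitters' processing notes, and the sources used here do not say how reads were counted. Libraries keep no strand, per the labels' protocols, so the values of overlapping genes on opposite strands may mix. Gene identity is the symbol in the files. The reference at hand is on another build, so no hg19 coordinates are given.

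A symbol with several rows was represented by its most abundant row. Libraries were scaled by median ratios to geometric means (factors 0.938 to 1.054), taken over the 7547 symbols that reach 5 RPKM everywhere. The 13827 symbols reaching 1 RPKM in 2 or more libraries were fitted with limma 3.58.1 in R 4.3.3 on log2(scaled RPKM + 0.5), with 8 group means, eBayes with a mean-variance trend (8 residual and 6.9 prior degrees of freedom) and Benjamini-Hochberg adjustment within each of 12 contrasts at 0.05. All groups share 1 estimate of the spread. The script was tested on simulated data. Low values move in steps of 1 read, which gave an estimate of depth. At that depth 62.3 to 64.5% of values below 10 reads were whole to within 0.1 read, too few for a count test.

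The 10 genes and the lists were chosen with earlier results of these data known. All 10 genes enter every comparison, and the text gives values for those it describes. From each list the text names the genes called with a treatment and the 4 most abundant with DMSO. Further partners, ligands, decoys and signalling genes of the 10 genes were added after their values were seen. The 3 genes with the largest changes got their 5 most similar genes. Alternatives were other scaling, pseudocounts, filters, row sums, variance models, fits on 1 line, a replicate block and left-out libraries.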

Additional observations from a re-analysis of the deposited data

Results flagged for a closer look

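IL4R was singled out because its response differed between the 2 lines by a test of the difference itself. The T-47D change minus the ECC-1 change was -1.63 on the log2 scale for estradiol (SE 0.197, limma adjusted p = 0.000291) and -1.51 for genistein (SE 0.197, adjusted p = 0.00119). Every treated ECC-1 library lay above its 2 controls and every treated T-47D library below its own. Both differences passed in all 19 alternatives run for each, with values from -1.85 to -1.42 for estradiol and from -1.61 to -1.4 for genistein. The 2 values share the DMSO libraries of both lines.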

How the results depend on the processing

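Over 29 alternatives, 16 of which leave out 1 library, no called value of the 10 genes changed its sign. The estradiol value of IL1R1 in T-47D helped choose the list. Its calls there and in the difference between lines with estradiol, also with libraries left out, support nothing. Where a call changed, the cause was not tested, except that leaving out libraries or fitting 1 line also leaves fewer samples.

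With array weights the number of the 10 genes called became 1 for BPA in ECC-1 (IL4R, 0.51), 2 for genistein in ECC-1, 0 for estradiol in T-47D (IL1R1 -1.24, IL4R -0.61, IL6ST 1.08), 2 for genistein in T-47D (IL4R -0.49, IL6ST 1.01), 1 for genistein against BPA in each line and 2 for the difference between lines with genistein. The number of all genes called moved as well with array weights. In ECC-1 it went from 27 to 68 for BPA and from 134 to 841 for genistein. In T-47D it went from 445 to 92 for estradiol and from 111 to 206 for genistein. For genistein against BPA it went from 6 to 52 in ECC-1 and from 56 to 96 in T-47D. For the difference between lines with genistein it went from 81 to 205. Without both first estradiol libraries each estradiol group held 1 library, so only sizes are given here. IL4R with BPA in ECC-1 was 0.51, and with genistein in T-47D IL4R was -0.49 and IL6ST 1.02. Which of the 10 genes passed changed in these comparisons, in genistein against BPA in T-47D and in the estradiol and genistein differences between lines. In a fit on T-47D alone estradiol had 1 call, IL1R1, which helped choose the list and supports nothing, with IL4R at -0.59 (adjusted p = 0.119) and IL6ST at 1.09 (adjusted p = 0.0765). With no filter IL6ST with estradiol missed the threshold at 1.08 (adjusted p = 0.103). With a pseudocount of 1 IL6ST with genistein in T-47D passed at 1.01, which made that count 1, while calls over all genes went from 111 to 126. The difference between lines with estradiol then held 2 calls, IL4R and IL1R1, of which IL1R1 helped choose the list and supports nothing.

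Without 1 library at a time 1 group held a single library, so only sizes are given here for the 10 genes. IL6ST with genistein in T-47D ran from 0.7 to 1.33. With estradiol in T-47D IL4R ran from -0.82 to -0.4 and IL6ST from 0.66 to 1.5. The IL13RA1 difference between lines with DMSO ran from -0.38 to -0.34. Over all alternatives the number of all genes called with estradiol ran from 110 to 2148 in ECC-1 (262 as reported) and from 92 to 3113 in T-47D (445), each highest without the second estradiol library, and with genistein from 58 to 841 (134) and from 47 to 271 (111). With BPA it ran from 10 to 68 in ECC-1 (27) and from 0 to 7 in T-47D (0).

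Pairing by replicate number was not taken as given, since 3 of 6 pairs of groups in ECC-1 and 4 of 6 in T-47D passed 0.1: the correlation of deviations of same-numbered libraries ran from -0.19 to 0.3 in ECC-1 and from -0.22 to 0.41 in T-47D. IL1R1 was higher in the second library of all 4 ECC-1 groups and IL6ST in that of all 4 T-47D groups. With a replicate block IL6ST with estradiol in T-47D stayed at 1.08 (limma adjusted p = 0.0017) and with genistein passed (1.01, adjusted p = 0.00575). That made 1 call for genistein in T-47D, and 1 for genistein against BPA there. Over all genes these calls went from 111 to 134 and from 56 to 70. The difference between lines with estradiol held 2 calls, IL4R and IL1R1, of which IL1R1 helped choose the list and supports nothing. Depth limits IL20RA and IL6R in ECC-1, which rest on an estimated 6 to 12 and 20 to 70 reads per library.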
